A study of Mus musculus with 18 samples.

Results

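Chemokines and cytokine ligands are the secreted or shed proteins with which tissues call in and steer other cells. The 42 genes described here are 14 CC chemokines, 13 CXC or CX3C chemokines and 15 cytokines (interleukins, colony-stimulating factors, Lif, Tslp and members of the TNF family). They were taken as a list of symbols, without a threshold on the values measured here, but the list was chosen with earlier results of these data known. All 42 were found by Ensembl identifier among the 46078 genes of the RNA-seq table. Of the 111664 peaks of the ATAC-seq table, 76 had their nearest edge within 5000 bp of the annotated start of one of these genes, and they belonged to 36 of the 42 genes. Ccl4, Ccl6, Ccl12, Ccl22, Cxcl13 and Il1b had no peak at that distance.

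Chemokines are small proteins that bind G protein-coupled receptors and set the direction in which leukocytes move. CC chemokines of the Ccl2 type draw monocytes, eotaxin draws eosinophils, CXC chemokines with a glutamate-leucine-arginine motif (Cxcl1, Cxcl2, Cxcl3, Cxcl5) draw neutrophils through Cxcr2, and Cxcl9, Cxcl10 and Cxcl11 are induced by interferon and draw T cells through Cxcr3. Small cell lung cancer is a neuroendocrine tumor known for a sparse immune infiltrate, and many inflammatory ligands are known targets of NF-kappaB, AP-1 and C/EBP factors.

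The libraries came from lung tumors of mice on a mixed C57BL/6;FVB129/N background. All 3 genotypes carried conditional alleles of Rb1, Trp53 (p53) and a further retinoblastoma family gene. The sample labels and part of the study's methods name that gene Rbl1. The study's results, a figure legend, its list of strains and another part of its methods name it Rbl2. By the study's methods all 3 genotypes also carried an allele of the tdTomato reporter. TKO mice carried nothing more. CARM1 knockout mice (TKO;Carm1) also carried floxed Carm1. NFIB mutant mice (TKO;NfibR388K) carried a knock-in in which lysine replaces an arginine of NFIB that CARM1 methylates. Adenoviral Cre, given into the trachea at 8 weeks of age, recombined the floxed alleles in infected lung cells, whereas the knock-in was present in every cell of the animal. Tumors were taken after 28 weeks from 3 animals per genotype. By the study's methods the cells were sorted for tdTomato, a reporter switched on by Cre, although the text also speaks of tumor biopsies and, for ATAC-seq, of cancer cell lines. There were 9 RNA-seq and 9 ATAC-seq libraries, 3 per genotype and assay, with 15848866 to 20915057 reads counted on genes and 26917178 to 47653979 on peaks. Table columns named C, KO and N were read as TKO, CARM1 knockout and NFIB mutant. The Carm1 transcript had 97.7, 103 and 44.5 CPM (counts per 1000000, scaled between libraries by edgeR's TMM factors) in TKO against 63.4, 79.1 and 50.8 in CARM1 knockout tumors, so the groups overlapped, and counts over the whole gene did not test the deletion. Nfib had 420.0, 580.0 and 571 CPM in TKO, 74.5, 216 and 87.2 in CARM1 knockout and 105, 83.3 and 91.4 in mutant NFIB tumors, lower in every mutant library, which does not test the base change of the knock-in.

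Cell type markers differed strongly between the genotypes, and they stand beside every ligand result. Of 12 neuroendocrine markers, 11 fell in NFIB mutant and 2 in CARM1 knockout tumors, and their summed level was 1763 to 3920 CPM in TKO, 33.5 to 51.2 CPM in mutant NFIB tumors, and 59.4, 188.5 and 1866 CPM in CARM1 knockout replicates 1, 2 and 3. The summed level of 6 fibroblast markers was 11.2 to 63.4 CPM in TKO and 9479 CPM or more in every mutant library. All 6 rose in CARM1 knockout and 5 in mutant NFIB tumors. Of 12 tested macrophage markers, 10 rose in CARM1 knockout and 4 in mutant NFIB tumors, and of 8 leukocyte markers 6 and 3 rose. Of 8 tested lung epithelial markers 1 fell in CARM1 knockout and 3 rose and 1 fell in mutant NFIB tumors, and of 5 endothelial markers 1 rose in each and 1 fell in mutant NFIB tumors. In bulk samples fewer cells of a type and less RNA per cell cannot be told apart, and the part of other cell types in the ligand results was not tested.

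Most ligand genes were near the limit of detection in TKO tumors and well expressed in both mutants. On average 11 of the 42 genes reached 1 CPM in TKO, against 34 in CARM1 knockout and 34 in mutant NFIB tumors, and 17 had 3 counts or fewer in every TKO library. Of the 35 members that passed the filter on low counts, 28 rose and 1 fell in CARM1 knockout tumors compared to TKO, and 26 rose and 1 fell in mutant NFIB tumors (edgeR's quasi-likelihood test, adjusted p under 0.1 and absolute log2 fold change of at least 0.8). Among all 15514 genes tested, 20.5% rose and 18.3% fell in the CARM1 knockout, while 22.3% rose and 23.5% fell in the NFIB mutant. The median log2 fold change of the 35 tested members was 6.26 in CARM1 knockout and 5.93 in mutant NFIB tumors, or 5.73 and 5.31 with the 11 tested genes of 3 counts or fewer in every TKO library set at their lower bound, beside −0.03 and −0.05 over all genes. In both mutants 25 members rose, as did 17.9% of all genes. All 6 mutant libraries lay above all 3 TKO libraries for 23 members, as they did for 22.3% of all genes. The mutants share the TKO libraries as their control, and a member that passed the filter through the mutants alone had to differ, so these counts describe the tested members. The 36 members with at least 1 CPM on average in a genotype are described with values, and the other 6 (Ccl17, Ccl22, Cxcl9, Cxcl11, Cxcl13 and Csf2) had at most 0.949 CPM in any library.

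**Figure D1:**
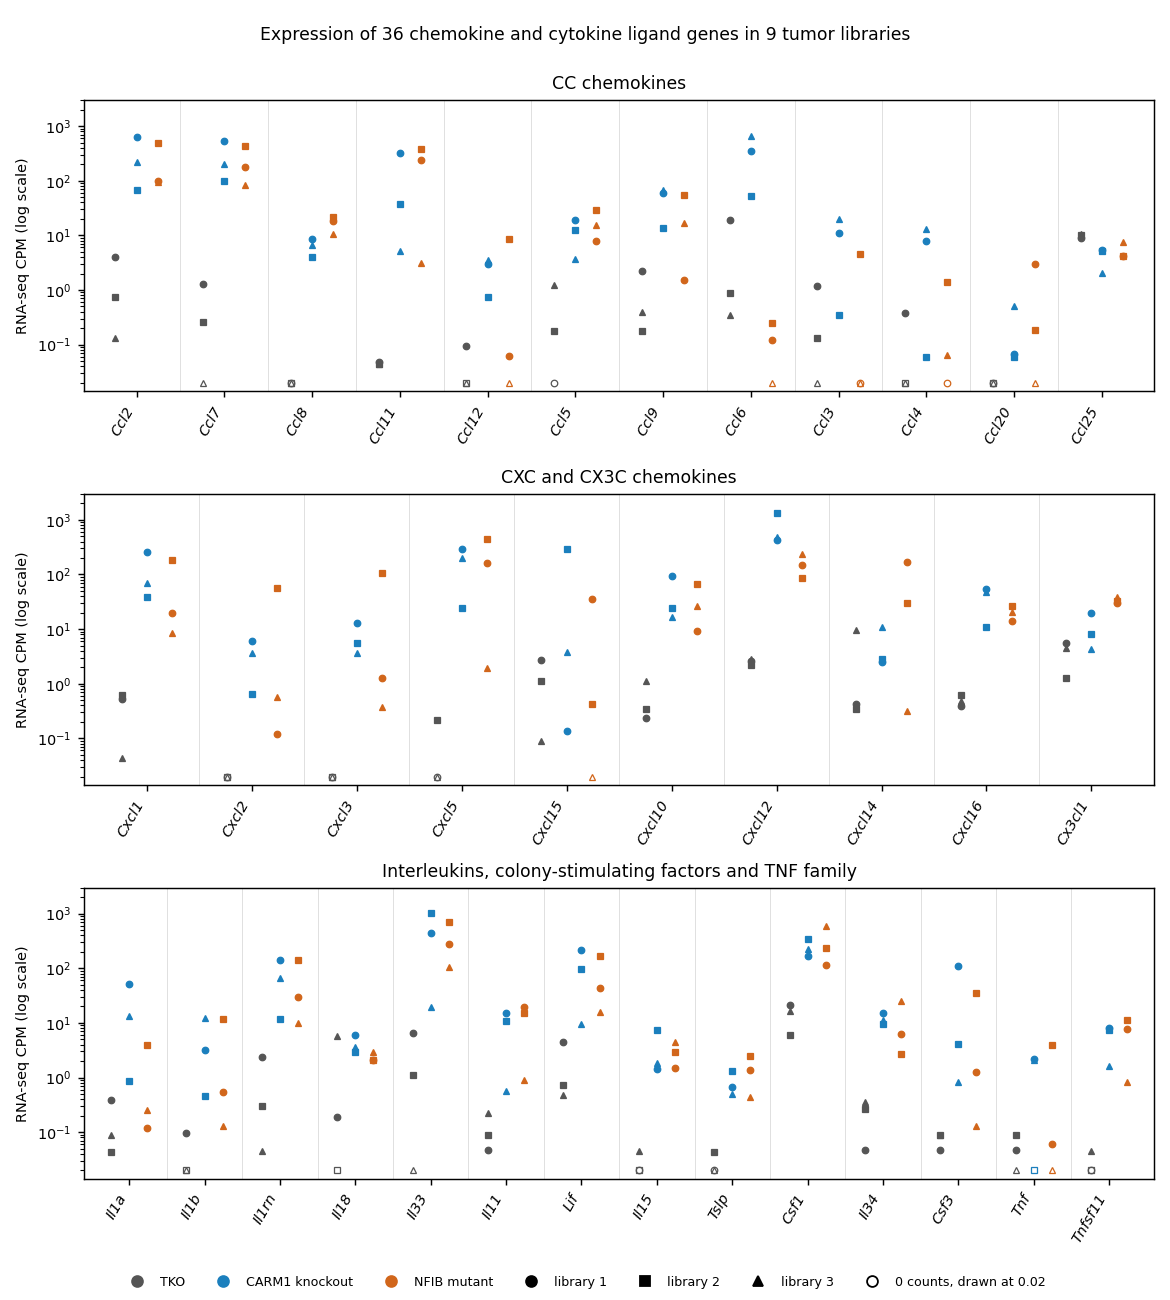
Expression of the 36 described ligand genes in each of the 9 RNA-seq libraries, in TMM-scaled CPM on a log axis, with TKO in grey, CARM1 knockout in blue and NFIB mutant in orange, a symbol for each library number and open symbols for 0 counts. The TKO values lie below all mutant values for 23 genes, Csf1 has the highest TKO mean at 14.6 CPM, and Ccl6 has its mutant groups on opposite sides of TKO.

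The chemokines Ccl2, Ccl7, Ccl11, Ccl12 and Ccl8, neighbors on chromosome 11 (82035571 to 82116799, GRCm38), rose in both mutants. Ccl2, the main ligand of Ccr2 on monocytes, had 4.08, 0.744 and 0.133 CPM in TKO, 625, 68.4 and 224 CPM in CARM1 knockout and 98.1, 482 and 94.3 CPM in mutant NFIB tumors. The log2 fold change was 7.54 ± 1.55 (SE, n = 3 against 3, edgeR adjusted p = 0.00935) in CARM1 knockout and 7.09 ± 1.52 (adjusted p = 0.00879) in mutant NFIB tumors. Every mutant library lay above every TKO library. Ccl7, another ligand of Ccr2, had 1.30, 0.262 and 0 CPM in TKO, 538, 98.2 and 199 in CARM1 knockout and 181, 431 and 82.4 in mutant NFIB tumors (log2 fold change 9.07 and 8.80, edgeR adjusted p = 0.0038 and 0.00316). Per kilobase of exon it had the highest level of the 42 ligands in both mutants, 348 and 289 CPM per kb on average, followed by Ccl2 with 269 and 198 CPM per kb.

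Ccl8, another monocyte chemokine, had no count in any TKO library, 8.41, 4.02 and 6.74 CPM in CARM1 knockout and 18.1, 21.3 and 10.4 CPM in mutant NFIB tumors. Against 3 counts in each TKO library, a limit that covers counting error only, the means were at least 47.0-fold and at least 122-fold higher (edgeR adjusted p = 0.00102 and 0.00057). Ccl11, eotaxin, had 1 count in each TKO library, 321, 38.1 and 5.11 CPM in CARM1 knockout and 241, 382 and 3.05 CPM in mutant NFIB tumors, at least 892-fold and at least 1530.0-fold higher (adjusted p = 0.0154 and 0.0104). Its mutant libraries spread widely, and the bounds were 159-fold without CARM1 knockout replicate 1 and 896-fold without NFIB mutant replicate 2. Ccl12, a mouse chemokine that also binds Ccr2, was low and uneven, with at most 2 counts in a TKO library, 2.98, 0.758 and 3.6 CPM in CARM1 knockout and 0.0608, 8.45 and 0 CPM in mutant NFIB tumors (adjusted p = 0.0831 and 0.0674). The means were at least 18-fold and at least 20.8-fold higher, but without NFIB mutant replicate 2 the NFIB mutant mean lay under the limit and the gene was not called. Without any one TKO library Ccl12 was called in neither mutant, and without any one CARM1 knockout library it was not called in CARM1 knockout tumors, where the log2 fold change over these fits lay between 5.50 and 8.46.

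Ccl5, Ccl9, Ccl6, Ccl3 and Ccl4, a further group on chromosome 11 (83525778 to 83664683, GRCm38), did not move as one. Ccl5, which draws T cells and monocytes, had 0, 0.175 and 1.24 CPM in TKO, 19.2, 12.8 and 3.71 in CARM1 knockout and 7.72, 29.0 and 15.4 in mutant NFIB tumors. The log2 fold changes were 4.63 ± 1.39 (edgeR adjusted p = 0.0354) and 5.18 ± 1.43 (adjusted p = 0.0222). All 6 mutant libraries were above TKO, although Ccl5 was not called in CARM1 knockout tumors without TKO replicate 2, and its value there was 6.99 without TKO replicate 3. Ccl9, a ligand of Ccr1, had 2.21, 0.175 and 0.399 CPM in TKO, 58.4, 13.7 and 68.4 in CARM1 knockout and 1.52, 53.8 and 17.1 in mutant NFIB tumors (log2 fold change 5.66 and 4.70, adjusted p = 0.0242 and 0.0333). NFIB mutant replicate 1 stayed within the range of TKO.

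Ccl6, a myeloid chemokine that lies next to Ccl9, went in opposite directions in the mutants. Its level was 19.0, 0.875 and 0.354 CPM in TKO, 350.1, 52.5 and 664 CPM in CARM1 knockout and 0.122, 0.247 and 0 CPM (2, 4 and 0 counts) in mutant NFIB tumors. The log2 fold change compared to TKO was 5.72 ± 1.65 (edgeR adjusted p = 0.0309) in CARM1 knockout and -5.69 ± 1.98 (adjusted p = 0.0488) in mutant NFIB tumors. Neither mutant overlapped TKO. Without TKO replicate 1 the values were 9.17 and -2.24, and the fall in mutant NFIB tumors was then not called, as it was not without any one of the NFIB mutant libraries (down to -6.60). Compared directly, the mutants differed by 11.41 ± 2.23 on the log2 scale with an unadjusted p of 0.000948 (edgeR), which did not pass after adjustment (adjusted p = 0.397), while DESeq2 called it (log2 fold change 11.50, adjusted p = 8.63e-11).

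Ccl3 and Ccl4, the macrophage inflammatory proteins, were found in few libraries. Ccl3 had 1.20, 0.131 and 0 CPM in TKO, 11.2, 0.350 and 19.7 in CARM1 knockout and 0, 4.62 and 0 in mutant NFIB tumors, and was called in neither (edgeR adjusted p = 0.185 and 0.541). Ccl4 had 0.384, 0 and 0 CPM in TKO, 7.86, 0.0583 and 13.2 in CARM1 knockout and 0, 1.42 and 0.0635 in mutant NFIB tumors. It passed narrowly in CARM1 knockout tumors (log2 fold change 5.73 ± 2.42, edgeR adjusted p = 0.0989), a call lost without any one TKO library, CARM1 knockout replicate 1 or 3 or NFIB mutant replicate 3, with 4.96 without CARM1 knockout replicate 3 and 9.98 without TKO replicate 1. Both genes were highest in CARM1 knockout replicates 1 and 3 and NFIB mutant replicate 2, the mutant libraries with the most Ptprc.

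Of the CC chemokines elsewhere in the genome, Ccl25 was the member that fell in CARM1 knockout tumors. Ccl25, which draws thymocytes and gut T cells through Ccr9, had 9.08, 10.2 and 10.5 CPM in TKO, 5.29, 5.13 and 2.08 in CARM1 knockout (log2 fold change -1.25 ± 0.47, edgeR adjusted p = 0.0734) and 4.25, 4.19 and 7.62 in mutant NFIB tumors (-0.89 ± 0.47, adjusted p = 0.158). All 6 mutant libraries were below TKO, but the call was lost without any one TKO or CARM1 knockout library, with values between -1.45 and -0.88. In mutant NFIB tumors Ccl25 was called lower by DESeq2, and by edgeR with library totals or with at least 10 counts in every library. Ccl20, the ligand of Ccr6, was not tested, with no TKO count, 0.0678, 0.0583 and 0.506 CPM in CARM1 knockout and 2.98, 0.185 and 0 CPM in mutant NFIB tumors.

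The neutrophil-attracting chemokines Cxcl5, Cxcl3, Cxcl1 and Cxcl2, neighbors on chromosome 5 (90759360 to 90905938, GRCm38), rose in both mutants. Cxcl1 had 0.528, 0.612 and 0.0443 CPM in TKO, 262, 38.9 and 69.8 in CARM1 knockout and 20.1, 186 and 8.51 in mutant NFIB tumors. The log2 fold changes were 8.27 ± 1.69 (edgeR adjusted p = 0.0092) and 7.48 ± 1.64 (adjusted p = 0.00957). No mutant library overlapped TKO. Cxcl5 had 0, 0.219 and 0 CPM in TKO, 296, 24.6 and 198 in CARM1 knockout and 162, 452 and 1.97 in mutant NFIB tumors (adjusted p = 0.0113 and 0.00864). NFIB mutant replicate 3 stood far below the other mutant libraries.

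Cxcl2 and Cxcl3 had no count in any TKO library. Cxcl2 had 5.96, 0.641 and 3.6 CPM in CARM1 knockout and 0.122, 57.4 and 0.572 CPM in mutant NFIB tumors, at least 25.0-fold and at least 142-fold higher than 3 counts per TKO library (edgeR adjusted p = 0.0795 and 0.0401). The NFIB mutant level rested on replicate 2, without which the bound was 2.55-fold, and the bound in CARM1 knockout tumors was 15.6-fold without replicate 1. Cxcl3 had 12.9, 5.60 and 3.6 CPM in CARM1 knockout and 1.28, 107 and 0.381 CPM in mutant NFIB tumors, at least 54.1-fold and at least 267-fold higher (adjusted p = 0.0564 and 0.0296), with a bound of 6.09-fold without NFIB mutant replicate 2 and of 33.8-fold without CARM1 knockout replicate 1. In CARM1 knockout tumors Cxcl2 was not called without any one TKO or CARM1 knockout library, and Cxcl3 not without replicate 1 or 2 of either. DESeq2 gave Cxcl3 no adjusted p in either mutant. Cxcl15 (lungkine), in the same stretch, was called in neither mutant (adjusted p = 0.141 and 0.356) and had 2.69, 1.14 and 0.0886 CPM in TKO, 0.136, 296 and 3.88 in CARM1 knockout and 35.2, 0.431 and 0 in mutant NFIB tumors. Single libraries set its mutant means.

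Promoters of Cxcl1, Cxcl2, Cxcl3 and Cxcl10 are shown. RefSeq promoter sequence was at hand for 30 of the 42 members and not for Ccl2, Ccl4, Ccl5, Ccl7, Ccl11, Cxcl5, Cxcl11, Cxcl16, Il15, Il34, Csf3 and Tslp. The sequences are the 250 bases before the RefSeq start (GRCm38.p6) in the direction of the gene, and capitals mark matches to the kappaB consensus, the motif of NF-kappaB. Cxcl1 (chr5:90890995-90891244), Cxcl2 (chr5:90903649-90903898) and Cxcl3 (chr5:90785851-90786100) lie on the + strand, and Cxcl10 (chr5:92348890-92349139) on the − strand. They were picked from members that rose in both mutants and held a kappaB match, so every sequence shown had to hold the motif.
Cxcl1: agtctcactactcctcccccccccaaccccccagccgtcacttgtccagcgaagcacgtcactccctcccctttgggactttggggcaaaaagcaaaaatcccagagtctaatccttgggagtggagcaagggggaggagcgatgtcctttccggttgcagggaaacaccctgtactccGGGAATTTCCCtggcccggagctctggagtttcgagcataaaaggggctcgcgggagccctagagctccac
Cxcl2: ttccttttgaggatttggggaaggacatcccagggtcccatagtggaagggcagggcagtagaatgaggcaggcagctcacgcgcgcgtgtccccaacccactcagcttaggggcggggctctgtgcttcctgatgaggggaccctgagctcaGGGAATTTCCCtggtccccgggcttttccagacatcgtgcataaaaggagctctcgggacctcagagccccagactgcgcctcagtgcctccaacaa
Cxcl3: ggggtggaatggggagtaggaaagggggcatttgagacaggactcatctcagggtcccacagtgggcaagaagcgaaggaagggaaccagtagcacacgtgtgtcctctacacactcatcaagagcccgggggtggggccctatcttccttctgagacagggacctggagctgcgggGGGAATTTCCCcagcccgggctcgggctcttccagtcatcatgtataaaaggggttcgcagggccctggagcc
Cxcl10: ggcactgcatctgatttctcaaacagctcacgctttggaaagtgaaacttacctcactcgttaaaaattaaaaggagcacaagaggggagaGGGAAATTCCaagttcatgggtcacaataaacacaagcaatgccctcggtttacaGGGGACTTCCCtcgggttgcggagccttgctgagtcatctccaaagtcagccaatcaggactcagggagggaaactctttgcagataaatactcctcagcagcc
In Cxcl1, Cxcl2 and Cxcl3 the matches on the 2 strands overlap and begin 71, 97 and 73 bases before the start, and Cxcl10 has a match that begins 159 bases and overlapping matches that begin 104 bases before it. Over 300-base windows (250 bases before to 50 after the start, both strands), 8 of 30 members (26.7%) and 9.55% of 27025 genes held a kappaB match. The members were Ccl9, Ccl20, Csf1, Cxcl1, Cxcl2, Cxcl3, Cxcl10 and Lif. The AP-1 letters TGANTCA were in 7 members (23.3%, against 8.97% of all genes), namely Ccl9, Cxcl9, Cxcl10, Il1a, Il1rn, Il11 and Lif. The ISRE core GAAANNGAA was in 5 members (16.7%, against 9.76%), the C/EBP letters TTNNGCAA in 3 (10%, against 12.2%), the GAS letters TTCNNNGAA in 2 (6.67%, against 9.55%), the single NFI site TTGGCA in 2 (6.67%, against 16.1%) and the NFI palindrome in 0 (0.0444% of all genes). These are matches of letters and not measured binding.

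Among the other CXC chemokines, Cxcl12, Cxcl10 and Cxcl16 rose in both mutants. Cxcl12, the ligand of Cxcr4 that holds stem cells and lymphocytes in their niches, had 2.64, 2.19 and 2.88 CPM in TKO, 421, 1362 and 476 CPM in CARM1 knockout and 148, 86.7 and 238 CPM in mutant NFIB tumors. The log2 fold change was 8.19 ± 0.71 (edgeR adjusted p = 0.000459, the smallest of any member) in CARM1 knockout and 5.93 ± 0.64 (adjusted p = 0.000789) in mutant NFIB tumors. The CARM1 knockout libraries were all above the NFIB mutant libraries, but the difference (log2 fold change 2.26 ± 0.54) did not pass in edgeR (adjusted p = 0.487) and passed in DESeq2 (2.24, adjusted p = 0.0102). Cxcl10, induced by interferon, had 0.24, 0.350 and 1.11 CPM in TKO, 94.8, 23.9 and 16.4 in CARM1 knockout and 9.06, 68.1 and 26.2 in mutant NFIB tumors (log2 fold change 6.29 and 5.91, edgeR adjusted p = 0.00661 and 0.00622). Its relatives Cxcl9 and Cxcl11, the latter annotated as a polymorphic pseudogene, were among the genes too low to test.

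Cxcl16, a membrane-bound ligand of Cxcr6, rose from 0.384, 0.612 and 0.487 CPM in TKO to 54.5, 10.8 and 46.9 in CARM1 knockout and 13.8, 26.1 and 20.8 in mutant NFIB tumors (log2 fold change 6.22 ± 0.70 and 5.33 ± 0.67, edgeR adjusted p = 0.00109 and 0.00126). Cx3cl1 (fractalkine), the membrane-bound ligand of Cx3cr1, rose in mutant NFIB tumors, from 5.48, 1.27 and 4.56 CPM in TKO to 30.6, 32.4 and 39.3 CPM (3.17 ± 0.71, adjusted p = 0.0102). CARM1 knockout tumors had 20, 8.11 and 4.33 CPM, overlapping TKO (1.52 ± 0.67, adjusted p = 0.109, and 1.94 and called without CARM1 knockout replicate 3), and the difference between the mutants did not pass (adjusted p = 0.532). DESeq2 called Cx3cl1 higher in CARM1 knockout tumors, as did edgeR on genes with at least 10 counts in every library. Cxcl14, an epithelial chemokine, was called in neither mutant and had 0.432, 0.350 and 9.84 CPM in TKO, 2.51, 2.80 and 11.1 in CARM1 knockout and 171, 29.6 and 0.318 in mutant NFIB tumors. The NFIB mutant libraries ranged on both sides of TKO, and the gene was called higher there without TKO replicate 3 (7.42), without NFIB mutant replicate 3 or by DESeq2.

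In the interleukin-1 family, Il33 had the highest level and Il1a and Il1b were uneven. Il33, an alarmin stored in the nucleus, had 6.63, 1.09 and 0 CPM in TKO, 443, 1041 and 19.4 in CARM1 knockout and 277, 699.7 and 105 in mutant NFIB tumors. The log2 fold changes were 7.61 ± 2.03 (edgeR adjusted p = 0.0238) and 7.13 ± 1.99 (adjusted p = 0.0232). Per kilobase of exon its mean was 174 and 125 CPM per kb, the fourth highest of the 42 ligands in both mutants. CARM1 knockout replicate 3 was the lowest of the mutant libraries. Il1rn, which encodes the antagonist of the interleukin-1 receptor, had 2.35, 0.306 and 0.0443 CPM in TKO, 144, 11.6 and 66.6 in CARM1 knockout and 29.9, 145 and 9.78 in mutant NFIB tumors (log2 fold change 6.36 and 6.09, adjusted p = 0.0241 and 0.0225).

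Il1a, an alarmin that acts on the same receptor, rose in CARM1 knockout tumors, from 0.384, 0.0437 and 0.0886 CPM in TKO to 51.0, 0.875 and 13.5 CPM (log2 fold change 6.94 ± 2.02, edgeR adjusted p = 0.0316). In mutant NFIB tumors it had 0.122, 3.94 and 0.254 CPM and was not called by edgeR (3.03, adjusted p = 0.187), although DESeq2 called it higher. Il1b, the form secreted by activated macrophages, had 2, 0 and 0 counts in TKO, 3.19, 0.467 and 12.4 CPM in CARM1 knockout and 0.547, 11.7 and 0.127 CPM in mutant NFIB tumors, at least 39.4-fold and at least 30.3-fold higher (adjusted p = 0.0445 and 0.0439). The bounds were 13.4-fold without CARM1 knockout replicate 3 and 2.48-fold without NFIB mutant replicate 2, and the latter call was then lost. Without TKO replicate 2 or 3, Il1b was called in neither mutant. Il18, made as an inactive precursor, was called in neither, with 0.192, 0 and 5.85 CPM in TKO, 5.96, 2.97 and 3.65 in CARM1 knockout and 2.13, 2.10 and 2.92 in mutant NFIB tumors. TKO replicate 3 set its TKO level, and without that library Il18 was called in both (5.41 and 4.58).

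The gp130 cytokines Lif and Il11 rose in both mutants. Lif, known for keeping mouse stem cells undifferentiated through Stat3, had 4.52, 0.744 and 0.487 CPM in TKO, 219.8, 95.5 and 9.72 in CARM1 knockout and 42.7, 169 and 15.8 in mutant NFIB tumors (log2 fold change 5.82 ± 1.55 and 5.31 ± 1.51, edgeR adjusted p = 0.0236 and 0.0252). Il11, which acts on stromal cells, had 0.0480, 0.0875 and 0.222 CPM in TKO, 15.3, 10.8 and 0.562 in CARM1 knockout and 19.6, 15 and 0.889 in mutant NFIB tumors (6.14 and 6.55, adjusted p = 0.0215 and 0.015). For both genes replicate 3 was the lowest library of each mutant. Il15, which sustains NK and memory T cells, was at 0 or 1 count in TKO and had 1.42, 7.52 and 1.85 CPM in CARM1 knockout and 1.52, 2.90 and 4.45 CPM in mutant NFIB tumors, at least 26.5-fold and at least 21.7-fold higher (adjusted p = 0.00441 and 0.00393). The bound in CARM1 knockout tumors was 12-fold without replicate 2. Tslp, an epithelial and stromal cytokine that acts on dendritic cells, was also at 0 or 1 count in TKO and had 0.678, 1.34 and 0.506 CPM in CARM1 knockout and 1.40, 2.53 and 0.445 CPM in mutant NFIB tumors, at least 6.18-fold and at least 10.7-fold higher (adjusted p = 0.0102 and 0.00508, and at least 6.77-fold without NFIB mutant replicate 2).

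The macrophage growth factors Csf1 and Il34, both ligands of Csf1r, rose in both mutants. Csf1, the member above 10 CPM in TKO, had 21.4, 6.08 and 16.4 CPM there, 168, 340.2 and 226 CPM in CARM1 knockout and 117, 239.7 and 586 CPM in mutant NFIB tumors. The log2 fold change was 4.07 ± 0.72 (edgeR adjusted p = 0.00557) and 4.43 ± 0.74 (adjusted p = 0.00339). Il34 had 0.0480, 0.262 and 0.354 CPM in TKO, 14.9, 9.45 and 11.3 in CARM1 knockout and 6.14, 2.71 and 25.6 in mutant NFIB tumors (5.69 and 5.64, adjusted p = 0.00664 and 0.00538). No mutant library overlapped TKO for either gene. Csf3, the granulocyte colony-stimulating factor, had 1, 2 and 2 counts in TKO, 109.7, 4.14 and 0.843 CPM in CARM1 knockout and 1.28, 34.6 and 0.127 CPM in mutant NFIB tumors, at least 281-fold and at least 88.1-fold higher (adjusted p = 0.0415 and 0.0584). The bound was 18.3-fold without CARM1 knockout replicate 1 and 5.16-fold without NFIB mutant replicate 2. Csf3 was not called without the library in question or without TKO replicate 1 or 2 (in mutant NFIB tumors also not without TKO replicate 3), and DESeq2 gave it no adjusted p in either mutant.

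Of the TNF family, Tnfsf11 (RANKL), the osteoclast factor, had 0, 0 and 1 count in TKO, 8.13, 7.46 and 1.63 CPM in CARM1 knockout and 7.78, 11.2 and 0.826 CPM in mutant NFIB tumors, at least 42.2-fold and at least 48.4-fold higher (edgeR adjusted p = 0.00652 and 0.00485). The bound in mutant NFIB tumors was 31.6-fold without replicate 2. Tnf itself had at most 2 counts in a TKO library, 2.17, 0 and 2.08 CPM in CARM1 knockout and 0.0608, 3.94 and 0 CPM in mutant NFIB tumors, and was not called (adjusted p = 0.14 and 0.132, called in CARM1 knockout tumors without NFIB mutant replicate 2). It was above 1 CPM in CARM1 knockout replicates 1 and 3 and NFIB mutant replicate 2, as Ccl3 and Ccl4 were.

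The mutant libraries of a genotype were far from alike. The highest and lowest library differed by over 10-fold for 14 of the 36 described members in CARM1 knockout and for 21 in mutant NFIB tumors. A gene with a library of 0 counts always met this rule, even at low counts in the others. In mutant NFIB tumors these were Ccl3, Ccl4, Ccl6, Ccl12, Ccl20, Cxcl15 and Tnf, and in CARM1 knockout tumors Tnf. The share over all genes was not computed. CARM1 knockout replicate 1 was the highest of its genotype for 22 of the 36 members and replicate 2 the lowest for 19. NFIB mutant replicate 2 was the highest for 25 and replicate 3 the lowest for 21. For these ranks, too, the shares over all genes were not computed, so they describe the members only. Chosen after its values were seen, the leukocyte marker Ptprc (CD45) had 1.49, 0 and 0.133 CPM in TKO, 29.1, 1.87 and 57.7 in CARM1 knockout and 0.365, 25.8 and 0.191 in NFIB mutant libraries. The complement gene C1qa, a macrophage marker chosen in the same way, had 1.73, 0 and 0.0886 CPM in TKO, 61.4, 3.27 and 138 in CARM1 knockout and 0, 4.01 and 0 in NFIB mutant libraries. The summed level of 13 macrophage markers was 17.8 to 92.3 CPM in TKO, 269 to 2952 in CARM1 knockout and 81.5 to 912 in NFIB mutant libraries, and that of 8 leukocyte markers 11.4 to 37.6, 90.7 to 776 and 13.3 to 572 CPM.

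NFIB mutant replicates 1 and 3 differed in their full marker lists. The summed level of the 8 leukocyte markers was 119 CPM in replicate 1 and 13.3 CPM in replicate 3, and that of the 13 macrophage markers 547 and 81.5 CPM. In both of these libraries 24 of the 35 tested members lay above the highest TKO library, as did 29.7% of all tested genes. Of the 24, Cxcl2, Il1b and Csf3 had 3 counts or fewer in one of them, and 8 tested members in replicate 1 and 15 in replicate 3 were under 1 CPM. Ccl3, Ccl4, Ccl6, Ccl12 and Tnf were at 0.122 CPM or less in both of these libraries. The summed level of 8 neutrophil markers was 0.131 to 0.336 CPM in TKO, 8.95, 3.21 and 1.52 CPM in CARM1 knockout and 7.72, 62.9 and 2.29 CPM in mutant NFIB tumors. S100a9 and Cd3e had no count in any of the 9 libraries. The summed level of 10 T and NK cell markers was at most 1.63 CPM. S100a8, the neutrophil gene that was tested, rose in both mutants, with 2.51, 1.87 and 0.899 CPM in CARM1 knockout and 6.63, 61.5 and 1.52 CPM in mutant NFIB tumors against at most 2 counts in a TKO library. Of 4 B cell markers 1 was tested and not called, and their summed level was at most 0.532 CPM.

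**Figure D2:**
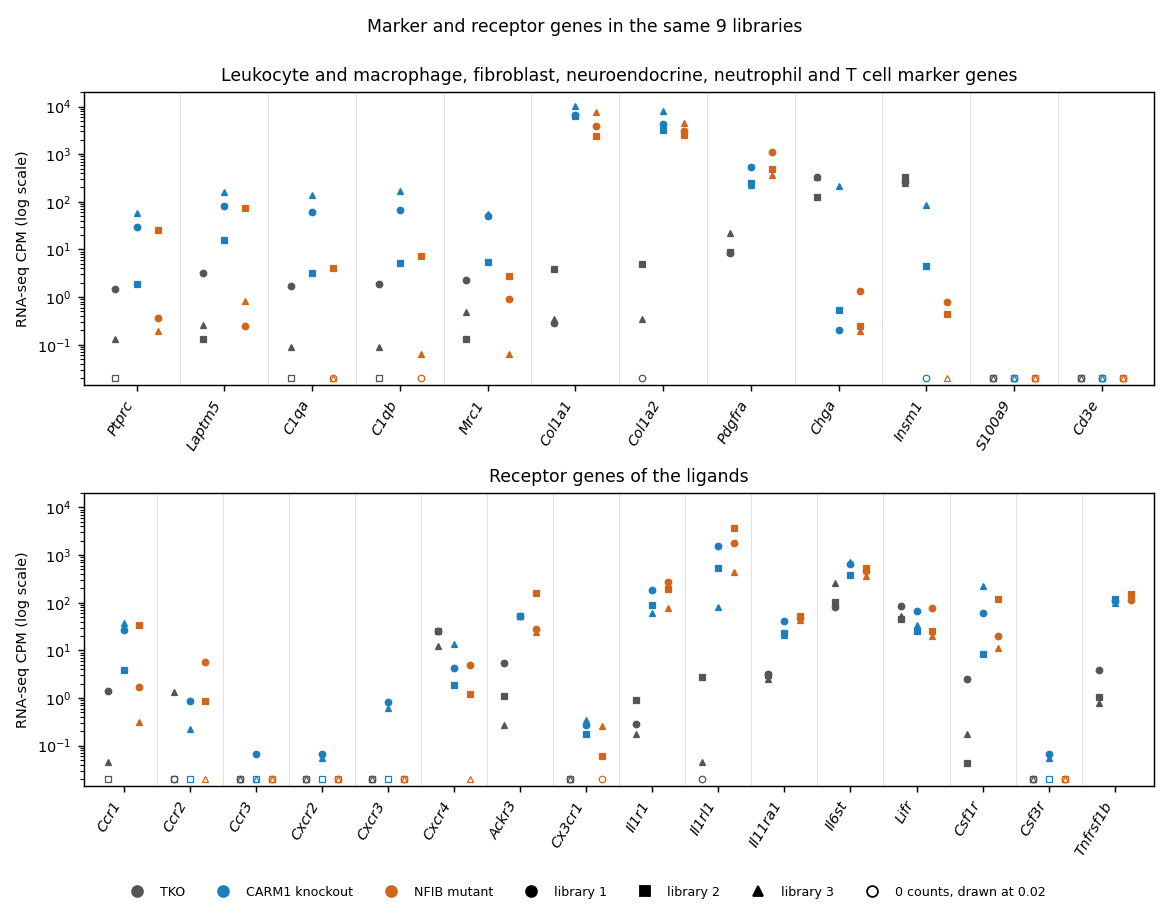
Marker genes (upper panel) and receptors of the ligands (lower panel) in each RNA-seq library, in TMM-scaled CPM on a log axis, with the same colors and symbols as for the ligands and open symbols for 0 counts. Ptprc and C1qa are highest in CARM1 knockout replicates 1 and 3, Col1a1 is at 2370 CPM or more in all 6 mutant libraries, and Cxcr2, Csf3r and Ccr3 have at most 1 count in every library.

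Of 40 receptor genes 26 were tested, and 17 rose in CARM1 knockout and 14 rose and 1 fell in mutant NFIB tumors. The first by the rule was Il1rl1 (ST2, the receptor of Il33), with 0, 2.71 and 0.0443 CPM in TKO, 1554, 528 and 82.0 in CARM1 knockout and 1760.0, 3778 and 434 in mutant NFIB tumors (log2 fold change 9.59 and 11.06). Il1r1, the receptor of Il1a and Il1b, went from a mean of 0.461 CPM in TKO to 113 in CARM1 knockout and 184 in mutant NFIB tumors, and Il18rap (log2 fold change 7.45 and 8.76), a subunit of the Il18 receptor, and Csf1r (log2 fold change 6.73 and 5.79), the receptor of Csf1 and Il34, followed. Chosen after their values were seen, the neutrophil receptors Cxcr1, Cxcr2 and Csf3r and the eotaxin receptor Ccr3 had at most 1 count in any library. Ccr2, the receptor of Ccl2, had at most 5.59 CPM and was not called. Cxcr4 was the receptor that fell, from 25.9, 25.7 and 12.3 CPM in TKO to 5.05, 1.23 and 0 CPM in mutant NFIB tumors (edgeR adjusted p = 0.0928), with 4.2, 1.87 and 13.6 CPM in CARM1 knockout tumors, where it was not called.

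Genes around these ligands moved as well. Of 6 tested decoys, scavengers and binding proteins 3 rose in CARM1 knockout and 4 in mutant NFIB tumors, among them Ackr3, the scavenging receptor of Cxcl12, from a mean of 2.29 to 51.9 and 70.8 CPM. Of 34 signalling and feedback genes of NF-kappaB, Toll-like receptor and Stat pathways, 25 rose in CARM1 knockout and 27 in mutant NFIB tumors and none fell, with a median log2 fold change of 1.98 and 2.05. Those named by the rule, with their log2 fold changes in the mutants, were Zc3h12a (6.08 and 5.43), a nuclease that degrades inflammatory mRNAs, Cebpd (5.34 and 5.74), a C/EBP factor, Irak3 (5.23 and 5.28), an inhibitor of Toll-like and interleukin-1 receptor signalling, and Tlr4 (4.92 and 5.38), the endotoxin receptor. Of 10 genes that process or release ligands 6 rose in CARM1 knockout and 5 in mutant NFIB tumors, including, with their log2 fold changes, the inflammatory caspases Casp4 (6.50 and 7.27) and Casp1 (7.01 and 4.84), the pore protein Gsdmd (4.69 and 5.98) and the sheddase Adam17 (0.88 and 1.02). Among 61 other ligands that the gene table lists, 20 were tested. Of these 9 rose and 2 fell in CARM1 knockout and 7 rose and 3 fell in mutant NFIB tumors. The acute phase cytokine Il6 was the first by the rule, with at most 2 counts in a TKO library, 159, 14.7 and 16.3 CPM in CARM1 knockout and 18.9, 159.8 and 2.48 CPM in mutant NFIB tumors. Against 3 counts in each TKO library it was at least 465-fold and 444-fold higher, and at least 114-fold and 78.6-fold without the highest library of each mutant, CARM1 knockout replicate 1 and NFIB mutant replicate 2. The platelet chemokine Pf4 had 8.20, 0.817 and 8.20 CPM in CARM1 knockout and 0.243, 207 and 1.27 CPM in mutant NFIB tumors, at least 42.2-fold and 510.0-fold higher, and 5.56-fold in the latter without replicate 2. Il16 (a mean of 20.5 and 16.0 CPM) and Tnfsf13b (9.03 and 6.94 CPM) followed.

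ATAC-seq, which counts reads where a transposase can cut open DNA, was read at the 76 peaks near these genes. All 76 were tested, and 49 rose and 3 fell in CARM1 knockout and 46 rose and 2 fell in mutant NFIB tumors (edgeR's quasi-likelihood test, adjusted p under 0.1 and absolute log2 fold change of at least 0.5). Among all 111116 peaks tested, 38.7% rose and 32.4% fell in the CARM1 knockout, while 39.3% rose and 34.0% fell in the NFIB mutant. The median log2 fold change of the 76 peaks was 1.57 and 1.72, against 0.22 in both mutants over all peaks. In both mutants 44 peaks rose, as did 35.0% of all peaks, and 2 fell, and for 47 peaks all 6 mutant libraries were above TKO, as for 33.1% of all peaks. Peaks over the start of a member rose in both mutants in 11 of 26 cases, beside 12.1% of the 13902 peaks over the start of any gene. The other peaks did so in 33 of 50 cases, beside 38.3% of 97214. Of the 25 genes that rose in both mutants, 23 had a peak within 5000 bp, for 15 of them the nearest peak rose in both, and for 19 at least 1 peak did. Of the 13 other members with a peak, the nearest peak rose in both mutants for 3. The matching shares over all genes were not computed, and a gene with more peaks is likelier to have at least 1 that rose. These counts therefore describe the members only. Within 1000 bp of the start of another protein-coding gene lay 5 of the 76 peaks, among them the start peaks of Ccl25 (near Elavl1), Cxcl16 (near Zmynd15) and Il18 (near Bco2).

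**Figure D3:**
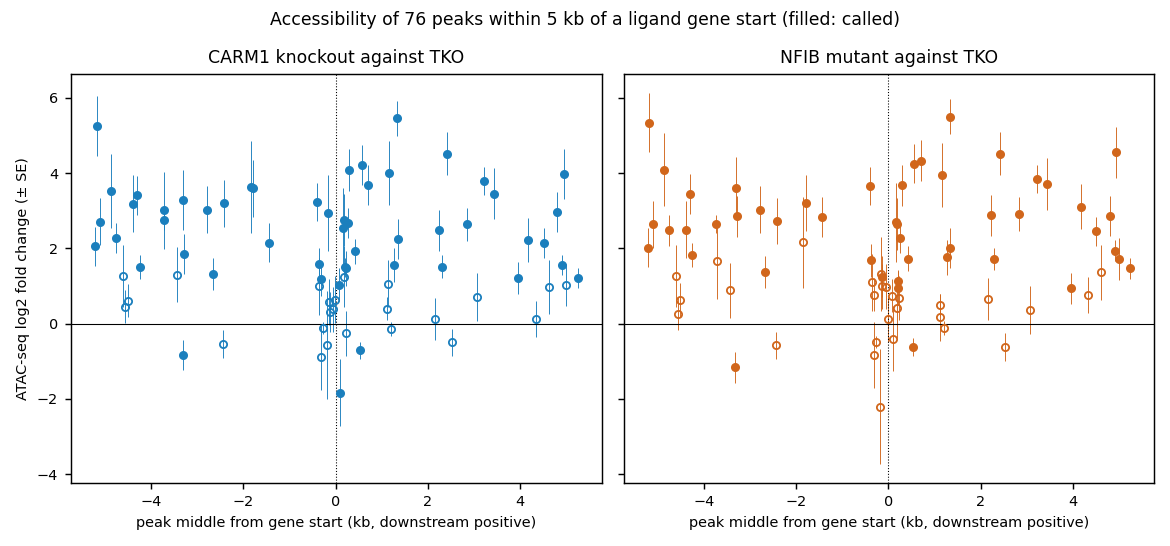
Log2 fold change (± SE, n = 3 against 3) of each of the 76 peaks against the distance of its middle from the start of its gene in kb, for CARM1 knockout (left) and NFIB mutant (right) compared to TKO, with called peaks filled. Rises in both mutants were called for 11 of 26 peaks over a start and for 33 of the 50 others.

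Pairs of values in parentheses are the log2 fold changes in CARM1 knockout and mutant NFIB tumors compared to TKO. Near the Ccl2 group on chromosome 11 the nearest peaks of Ccl2, Ccl7, Ccl8 and Ccl11 rose in both mutants. The peak over the Ccl2 start (82034563 to 82036939) had 1.02, 0.803 and 6.25 CPM in TKO, 22.2, 12.5 and 19.6 in CARM1 knockout and 9.98, 19.2 and 20.9 in mutant NFIB tumors (log2 fold change 2.77 ± 0.69 and 2.65 ± 0.69, edgeR adjusted p = 0.00535 and 0.00614). TKO replicate 3 lay between the other TKO libraries and the mutants, and without it the values were 4.32 and 4.2. The same library was high at the Ccl7 start, where TKO had 0.128, 0.154 and 4.31 CPM and the mutants 5.05 to 14.4 CPM (log2 fold change 2.55 and 2.69, adjusted p = 0.0515 and 0.0409). Without TKO replicate 3 these values were 5.94 and 6.08, and the CARM1 knockout call was lost without TKO replicate 1 or 2 or CARM1 knockout replicate 1 (down to 1.99). TKO replicate 3 was the highest TKO library at 39 of the 76 peaks. The share over all peaks was not computed, and this library had the fewest reads on peaks (26917178). Chosen after its values were seen, the peak centered 2418 bp downstream of the Ccl7 start had 0.128, 0.371 and 0.549 CPM in TKO and 5.11 to 10.7 CPM in the mutants (4.52 and 4.51). The Ccl8 start peak had 0.278 to 1.61 CPM in TKO, 9.66 to 13.5 in CARM1 knockout and 13.8 to 20.2 in mutant NFIB tumors (3.69 and 4.33), and the peak upstream of Ccl11 had 0.185 to 0.592 CPM in TKO and 1.80 to 10.4 CPM in the mutants (3.29 and 3.61).

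At the Ccl3 start the peak had 0.414, 0.124 and 0.592 CPM in TKO, 2.71, 0.269 and 5.59 in CARM1 knockout and 0.478, 1.80 and 0.530 in mutant NFIB tumors. It rose in CARM1 knockout tumors (2.93, edgeR adjusted p = 0.0249), a call lost without CARM1 knockout replicate 3 (1.99), and was not called in mutant NFIB tumors. The Ccl9 start peak rose in both (4.09 and 3.67). Chosen after its values were seen, the next peak within Ccl9 had at most 0.254 CPM in TKO and 6.28 to 9.36 CPM in the mutants (5.46 and 5.50). The nearest peaks of Ccl5 (2.49 and 2.88), within the gene, and of Ccl20 (3.46 and 3.71), downstream of it, also rose in both, although Ccl20 RNA was too low to test. The Ccl25 start peak was not called (-0.11 and -0.48, called lower in mutant NFIB tumors without TKO replicate 1 or NFIB mutant replicate 2), whereas a peak centered 3962 bp into the gene rose in both, from 0.887 to 0.924 CPM in TKO to 1.44 to 2.61 CPM in the mutants (1.22 and 0.94).

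Among the neutrophil chemokines, the calls for start peaks and for expression matched at Cxcl1, Cxcl5 and Cxcl15 but not at Cxcl2 and Cxcl3. The Cxcl1 start peak had 4.27, 6.06 and 1.94 CPM in TKO, 32.8, 23.0 and 22.9 in CARM1 knockout and 13.2, 22.9 and 23.9 in mutant NFIB tumors (log2 fold change 2.67 ± 0.40 and 2.29 ± 0.40, edgeR adjusted p = 0.000358 and 0.000687), and the Cxcl5 start peak rose too (1.58 and 1.68). The start peaks of Cxcl2, Cxcl3 and Cxcl15 were not called in either mutant. That of Cxcl2 had 1.75, 1.08 and 0.929 CPM in TKO, 2.69, 2.40 and 2.42 in CARM1 knockout and 1.38, 6.26 and 0.451 in mutant NFIB tumors, and that of Cxcl3, over the promoter printed above, 0.494 to 2.36 CPM in all libraries. NFIB mutant replicate 2 was the highest library at both, and without NFIB mutant replicate 3 both were called higher in mutant NFIB tumors (1.61 and 1.33). The Cxcl15 start peak was called lower in CARM1 knockout tumors without replicate 2 of that genotype (-3.41) and in mutant NFIB tumors without TKO replicate 3. The peak centered at -3312 bp from the Cxcl2 start fell in both mutants, from 7.27, 10.3 and 7.82 CPM in TKO to 6.38, 4.95 and 2.95 in CARM1 knockout and 2.51, 3.92 and 4.96 in mutant NFIB tumors (-0.83 ± 0.41 and -1.16 ± 0.41, adjusted p = 0.0938 and 0.0278). Neither fall was called when scaled by library totals or by start-site peaks.

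Of the other CXC chemokines, the Cxcl12 start peak had 13.6, 10.5 and 9.0 CPM in TKO, 34.5, 35.7 and 23.7 in CARM1 knockout and 18, 27.0 and 28.1 in mutant NFIB tumors (log2 fold change 1.5 ± 0.26 and 1.14 ± 0.25), with no overlap. The Cxcl16 start peak rose in both mutants (1.92 and 1.73). The Cxcl10 start peak rose in CARM1 knockout tumors (1.04, edgeR adjusted p = 0.0528), a call lost without CARM1 knockout replicate 1 (0.41) or TKO replicate 2 or 3, and had 0.75 in mutant NFIB tumors (adjusted p = 0.142, called without CARM1 knockout replicate 1). The Cxcl14 start peak fell in CARM1 knockout tumors (-1.83, adjusted p = 0.0922), but was -0.81 and not called without TKO replicate 3, and also not called without CARM1 knockout replicate 1 or 2 or NFIB mutant replicate 2. The call was also lost when scaled by library totals or by start-site peaks.

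At Csf1 and Cx3cl1 the start and the flanks went apart. The Csf1 start peak was not called, with 32.5, 30.8 and 38.5 CPM in TKO, 25.7, 35.3 and 31.5 in CARM1 knockout and 26.2, 38.0 and 30.2 in mutant NFIB tumors, while the peaks centered at -3282 bp (1.86 and 2.85), at 4175 bp (2.23 and 3.11) and at -5102 bp from the start (2.71 and 2.64) rose. The Cx3cl1 start peak fell, from 28.6, 21.0 and 17.8 CPM in TKO to 15.1, 13.9 and 12.2 in CARM1 knockout and 16.2, 12.7 and 15 in mutant NFIB tumors (-0.71 ± 0.23 and -0.62 ± 0.23, edgeR adjusted p = 0.0192 and 0.0332). It was not called without TKO replicate 1 (-0.50 and -0.41), or when scaled by library totals or by start-site peaks. The peaks centered at 4511 bp (2.15 and 2.45) and at -4754 bp (2.27 and 2.48) from the Cx3cl1 start rose.

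Start peaks of cytokine genes that rose in both mutants were those of Il15 (4.22 and 4.26), Il1rn (3.23 and 3.65) and Tnfsf11 (1.48 and 0.96), the last not called in mutant NFIB tumors without any one TKO library, CARM1 knockout replicate 2 or NFIB mutant replicate 1 or 3. At Il15 0.525 to 1.35 CPM in TKO stood against 8.13 to 25.5 in CARM1 knockout and 12.5 to 19.0 in mutant NFIB tumors. The nearest peaks of Il34, upstream (2.74 and 2.65), and of Tslp, within the gene (1.51 and 1.72), rose in both as well. The Csf3 start peak rose in CARM1 knockout tumors (1.19, not called without replicate 1, 0.54), as did the peak upstream of Il1a (3.63, not called without replicate 1, 1.86). In mutant NFIB tumors both were called without CARM1 knockout replicate 1, that of Csf3 also without NFIB mutant replicate 1 and that of Il1a also without TKO replicate 1. The start peaks of Il18 and Tnf and the nearest peak of Il11 were called in neither mutant, although that of Il18 was called in both without TKO replicate 3 (3.39 and 2.58).

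At Il33 and Lif the start peaks were not called in CARM1 knockout tumors. The Il33 start peak had at most 1.29 CPM in any library, beside a mean of 501 CPM of Il33 RNA in CARM1 knockout tumors, and it was called in mutant NFIB tumors without TKO replicate 2 (1.48). RefSeq also gives Il33 a promoter window within the gene (chromosome 19, 29945540 to 29945839), and accessibility there is not described here. Chosen after their values were seen, the peak centered at -4381 bp from the Il33 start rose in both mutants (3.18 and 2.50), as did the broad peak within Lif described next. The Lif start peak rose in mutant NFIB tumors (1.25), a call lost without TKO replicate 1 or 2 or NFIB mutant replicate 3 (0.81). A broad peak centered 4911 bp into Lif had 6.93 to 11.8 CPM in TKO, 20.5 to 33.4 in CARM1 knockout and 27.4 to 46.2 in mutant NFIB tumors (1.56 and 1.94).

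**Figure D4:**
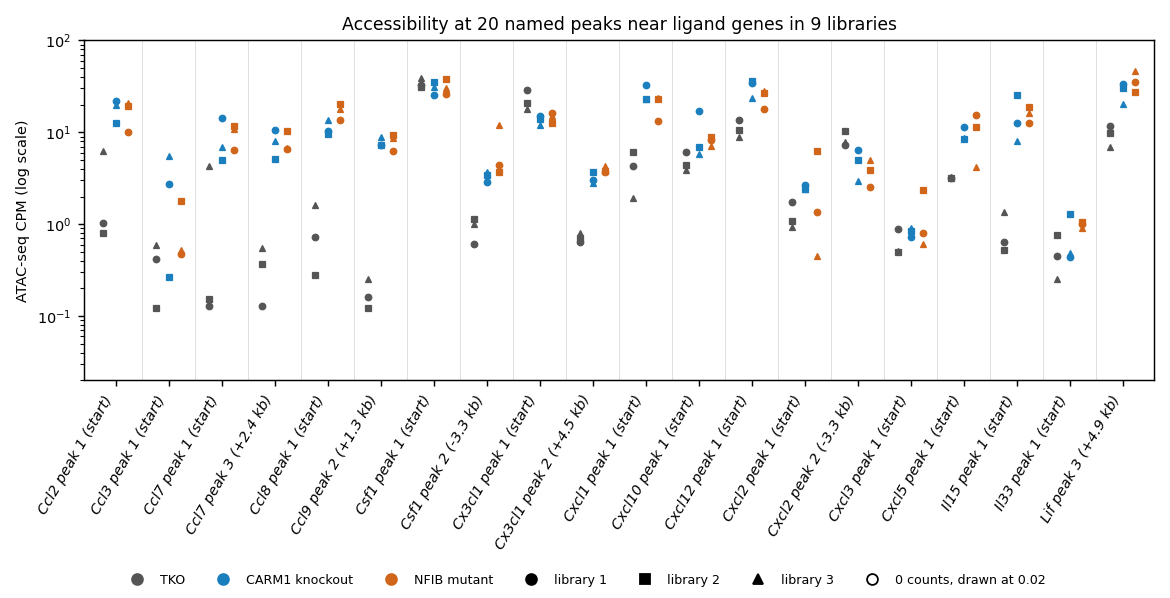
ATAC-seq signal of 20 named peaks in each of the 9 libraries, in TMM-scaled CPM on a log axis, with TKO in grey, CARM1 knockout in blue and NFIB mutant in orange and a symbol for each library number. The genotypes overlap at the Csf1 start peak (25.7 to 38.5 CPM), the Cx3cl1 start peak is lower in the mutants, and TKO replicate 3 is the high TKO value at the Ccl2 and Ccl7 starts.

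When the mutants were compared with each other, no member and no nearby peak was called by edgeR, beside 0.0% of all genes and 0.0% of all peaks. At an unadjusted p under 0.05 there were 4 of 35 members and 1 of 76 peaks, beside 1414 of 15514 genes and 6813 of 111116 peaks. DESeq2 called Ccl6 and Cxcl12, both higher in CARM1 knockout tumors, and no peak near a member.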

How the data were processed

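Both tables hold the authors' deposited counts, with no normalization. For RNA-seq the authors used Trim Galore for trimming, HISAT2 for alignment to mm10 and htseq-count to assign reads to genes. For ATAC-seq they mapped reads with Bowtie2, removed duplicates with Picard, called peaks with MACS2 (Genrich in the submitters' processing notes) and, per the file header, counted reads over 1 merged peak set with featureCounts (bedtools multicov in the study's methods). Versions of the aligners are not given in the sources used here. The 5 htseq-count summary rows were left out of library sizes and tests (reads outside genes made up 3.65 to 12.2% of a library).

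Genes and peaks were tested over the whole table with edgeR 4.0.16 in R 4.3.3 (TMM factors, filterByExpr, robust quasi-likelihood fit over the 9 libraries of an assay, Benjamini-Hochberg adjustment), after the scripts were tested on simulated data. DESeq2 1.42.0 was the alternative test. Values are TMM-scaled CPM, and detection limits (3 counts) cover counting error only. In edgeR the errors of fold changes (SE) are approximate standard errors, the absolute log2 fold change divided by the square root of the F statistic. With 3 libraries against 3 an exact permutation test cannot go below p = 0.1, so single genes were tested in the fit across all features. Replicate numbers were not treated as pairs. Gene positions are from the GRCm38 annotation.

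The members and gene lists were chosen with earlier results of these data known. Members with at least 1 CPM on average in a genotype are described with values. From each other gene list up to 4 genes are named, those with the largest mean change among genes called one way in both mutants and with at least 5 CPM in the higher genotype. For peaks, the nearest to each described gene is named, and any other of opposite sign. Alternatives were other scaling, count filters, test, samples in the fit, a replicate block, thresholds, peak distances and leaving out each library.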

Additional observations from a re-analysis of the deposited data

Results flagged for a closer look

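Ccl6 was the member whose mutants lay on opposite sides of TKO, with every CARM1 knockout library above and every NFIB mutant library below every TKO library. The difference between the mutants was 11.41 on the log2 scale (edgeR adjusted p = 0.397), and DESeq2 gave 11.50 (adjusted p = 8.63e-11). The macrophage markers, summed over 13 genes, were at 1229, 269 and 2952 CPM in the CARM1 knockout and 547, 912 and 81.5 CPM in those of the NFIB mutant. In the same order of libraries Ccl6 had 350.1, 52.5 and 664 CPM in the CARM1 knockout and 0.122, 0.247 and 0 CPM in the NFIB mutant. The part of macrophages in the difference was not tested.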

How the results depend on the processing

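Over 190 combinations of a count and an alternative, 151 lay within 1.5 times the reported count. Of the 56 rises and falls of single members in a mutant that were called in RNA-seq, 44 were called without each library in turn and 43 under every alternative that gave them an adjusted p, and of 40 at the nearest peaks 30 and 30. Requiring at least 10 counts in every library, which removes most members, left 4 members higher in CARM1 knockout and 4 in mutant NFIB tumors, and 29 peaks higher and 1 lower in CARM1 knockout and 1 lower in mutant NFIB tumors. Members called lower numbered 0 in CARM1 knockout tumors with the stricter threshold, with no filter on low counts or with the replicate block, and in mutant NFIB tumors 2 with library totals or DESeq2 and 0 with only the groups compared or with the replicate block. DESeq2 called 2 members between the mutants. Deviations from group means of libraries with the same number correlated at r = -0.297 to 0.118 in RNA-seq and -0.142 to 0.118 in ATAC-seq. These values gave no sign of pairing by number but cannot exclude shared litters or batches. The study's methods state that controls were littermates. The replicate block gave 25 and 22 members higher, and 51 and 49 peaks higher with 1 and 2 lower. Without 1 library, members called higher numbered 21 to 29 in CARM1 knockout and 23 to 27 in mutant NFIB tumors, and lower 0 to 1 in each, while peaks called higher numbered 45 to 54 and 44 to 50 and lower 1 to 3 and 2 to 3. Peaks called lower numbered 0 and 1 with the stricter threshold, 0 and 0 with library totals or start-site peaks, 5 and 5 with DESeq2, and 5 in mutant NFIB tumors with median-of-ratios factors. With peaks within 1000 bp of a start, 19 were higher in CARM1 knockout, and 17 higher and 1 lower in mutant NFIB tumors. The causes of these moves were not tested. Other scaling shifted the median log2 fold change of all features, to -0.30 and -0.37 with library totals in RNA-seq and to 0.79 and 0.79 with library totals, 0.61 and 0.695 with start-site peaks and 0.04 and 0.07 with median-of-ratios factors in ATAC-seq. DESeq2, run without the count filter, gave -0.22 and -0.26 in RNA-seq, where no filter alone gave -0.16 and -0.22 and median-of-ratios factors alone -0.05 and -0.07. The share of higher among called genes went from 52.9% and 48.7% to 39.4% and 35.8% with library totals, and among called peaks from 54.4% and 53.6% to 65.9% and 64.3%.

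Log2 fold changes that were not called changed sign under some alternatives. For RNA in CARM1 knockout tumors this was Cxcl14 (-0.39 to 3.81 without 1 library). For RNA in mutant NFIB tumors these were Ccl3 (-6.05 to 4.44 without 1 library), Ccl4 (-1.79 to 6.18 without 1 library), Cxcl15 (-2.53 to 4.26 without 1 library), Il18 (-0.13 with library totals, -0.34 to 4.58 without 1 library) and Tnf (-0.46 to 5.46 without 1 library). For the nearest peaks in CARM1 knockout tumors these were Ccl25 (0.47 with library totals, 0.045 with at least 10 counts, 0.28 with start-site peaks, -0.20 to 0.013 without 1 library), Csf1 (0.43 with library totals, 0.014 with at least 10 counts, 0.25 with start-site peaks), Cxcl15 (0.15 with library totals, -3.41 to 0.39 without 1 library), Il11 (-0.048 with median-of-ratios factors, -0.042 with DESeq2, -0.14 with the replicate block, -0.38 to 0.47 without 1 library) and Il33 (-0.095 to 1.06 without 1 library). For the nearest peaks in mutant NFIB tumors these were Ccl25 (0.081 with library totals), Csf1 (0.45 with library totals, 0.057 with at least 10 counts, 0.34 with start-site peaks, -0.27 to 0.014 without 1 library), Cxcl14 (0.022 with library totals, 0.12 with start-site peaks, -1.53 to 0.62 without 1 library), Cxcl2 (-0.46 to 1.61 without 1 library), Il18 (-0.077 to 2.58 without 1 library) and Tnf (-0.012 with median-of-ratios factors, -0.007 with DESeq2, -0.52 to 0.47 without 1 library).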
